A study of Mus musculus with 26 samples.

Results

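The 39 genes described here make, store, release or take up fat. They cover fatty acid synthesis, elongation and desaturation, triglyceride assembly, lipolysis, lipid droplet proteins and the transport of fatty acids and glycerol. They were chosen by symbol, and all 39 were found among the 18193 genes named on the array, each read from its brightest probe set. Expression was measured in 26 immortalized clonal adipose cell lines from 129SVE mice, 3 from the interscapular depot (BAT1, BAT6 and BAT8) and 23 from the inguinal depot, with 1 Affymetrix Mouse430_2 array per clone. Per the labels' protocols every clone was fully differentiated and then exposed for 4 h to forskolin, which raises cAMP by activating adenylyl cyclase. There was no untreated clone, so the response to forskolin itself was not measured here. The series text gives the dose as 10 micromolar and the sample protocols as 10 millimolar. Each line is 1 clone, so the spread within a depot is a spread between clones and not between repeated cultures, which were not analysed here. No label sorts the inguinal clones into beige and white.

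A fat cell builds fatty acids from citrate carried out of the mitochondrion, esterifies them stepwise onto glycerol 3-phosphate, and stores the triglyceride in a droplet coated with perilipins and CIDE proteins. Adrenergic signals, which forskolin imitates downstream of the receptor, raise cAMP, and protein kinase A then releases the co-activator Abhd5 from the droplet coat so that the lipases Pnpla2 (ATGL), Lipe (HSL) and Mgll can break triglyceride down in turn. Brown fat cells burn the released fatty acids, while white fat cells mostly export them.

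Defining markers of fat cells were checked first. Adipoq, the adiponectin gene, and the adipogenic factors Pparg and Cebpa exceeded their array's median in all 26 clones, whereas leptin (Lep) exceeded it in none. Of the other adipocyte markers, Trarg1 did so in 3 of 3 interscapular and 11 of 23 inguinal clones and Klb in 3 of 3 and 13 of 23, while Retn, Adig, Slc2a4, Acvr1c and Aoc3 did so in 3 of 3 interscapular and at least 21 of 23 inguinal clones. Of the brown fat genes, Zic1 and Lhx8 were under that median in all 26 clones. Cidea was over it in 1 of 3 interscapular and 1 of 23 inguinal clones, and Ucp1 in 3 of 3 and 9 of 23. Cox7a1 and Ebf2 were higher in interscapular clones (2 of 8 tested). Ucp1 (difference 0.64, limma adjusted p = 0.395), Dio2, Ppargc1a, Cox8b, Elovl3 and Prdm16 did not pass. The highest inguinal Ucp1 value, 7.55, exceeded BAT1 (7.01), BAT6 (6.37) and BAT8 (6.19). BAT6 had a log2 ratio of 3' to 5' Gapdh control signal, a measure of RNA quality, of 4.51, against -0.16 to 1.61 in the other 25 clones, where the highest was F4. The same ratio for actin was 1.15 in BAT6, against 0.24 to 0.99 in the other 25 clones. Scan session 1 held 2 interscapular and 17 inguinal arrays, session 2 held 1 and 3, and the others were inguinal. Array medians lay between 40.4 and 45.8 intensity units. All values below are log2(intensity + 16), a scale that understates the change of dim genes. Levels of different probe sets are not comparable with each other, so only 1 gene is compared across clones at a time.

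Among the 23 inguinal clones most lipid genes varied together. As a summary, each gene was centred on its inguinal mean and the 39 values were averaged in each clone. D12 stood highest at 1.16 log2 units above the inguinal mean, with D16 at 0.71, F9 at 0.67, M3 at 0.63, B13 at 0.61 and X3 at 0.57. At the other end stood I2 at -1.29, N13 at -1.01, G10 at -0.89, F4 at -0.75, E3 at -0.63 and A5 at -0.55. The remaining 11 inguinal clones lay between -0.48 (E1) and 0.46 (M4). D12 was the highest inguinal clone for 22 of the 39 genes and B13 for 6, while I2 was the lowest for 14 and N13 for 11. The interscapular clones did not stand together on this scale: BAT1 had the highest mean of all 26 clones at 1.19, BAT6 ranked 7 of 26 at 0.60 and BAT8 ranked 13 of 26 at 0.28. In bulk RNA of a clone, fewer fat-filled cells and less RNA per cell cannot be told apart.

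**Figure D1:**
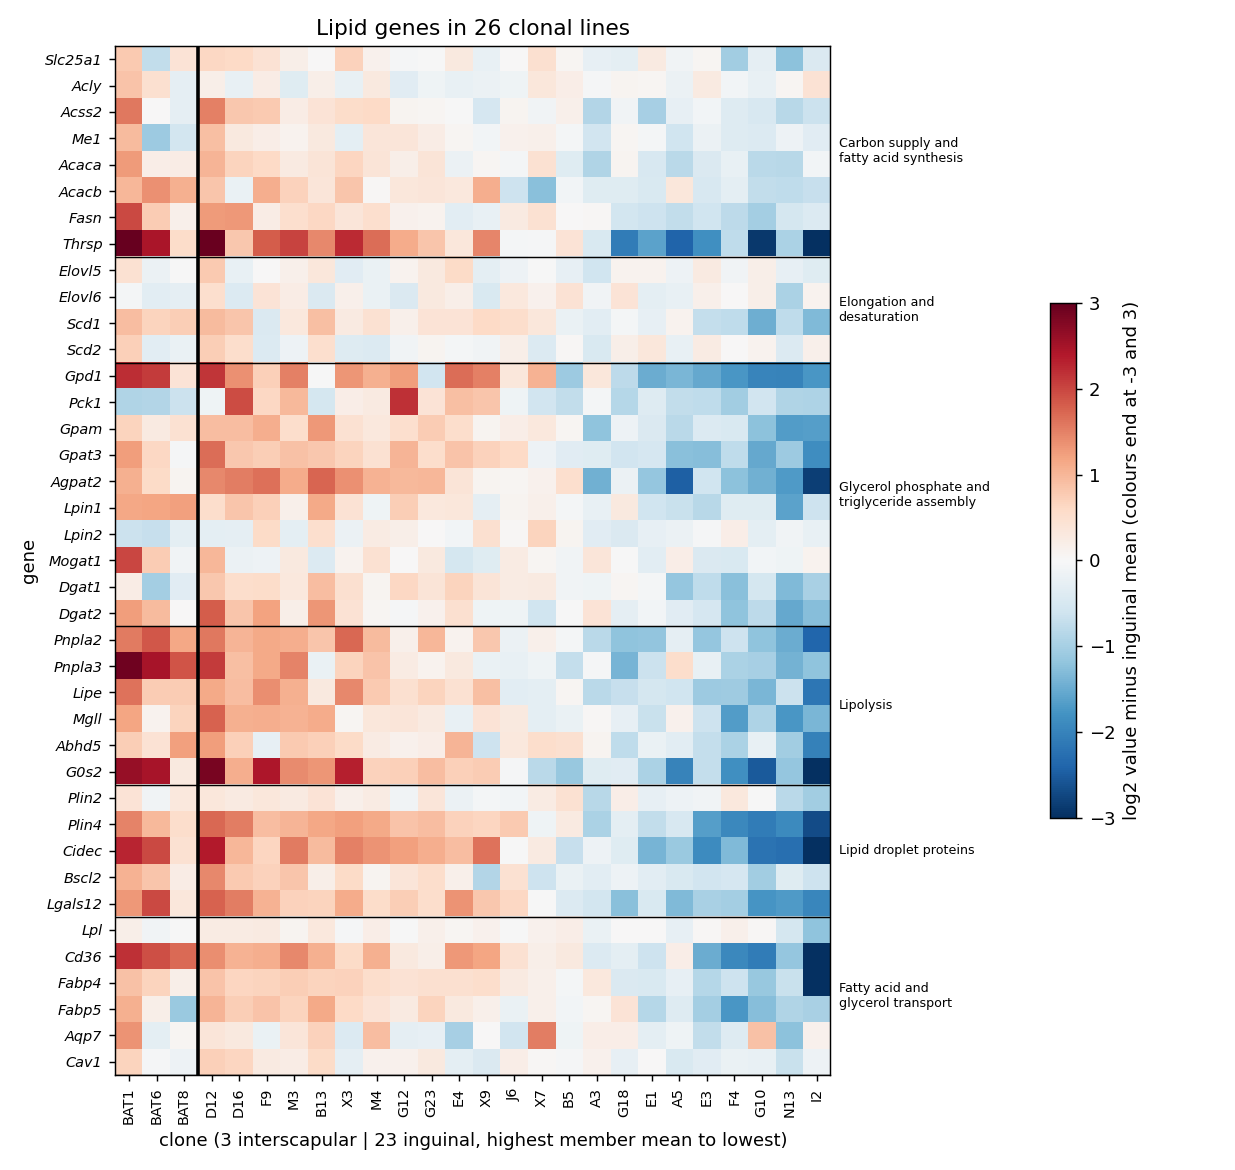
Log2 value minus the inguinal mean for each of 39 lipid genes (rows, by role) in 26 clones (columns), the 3 interscapular clones left of the black line and the 23 inguinal clones right of it from the highest member mean (D12, 1.16) to the lowest (I2, -1.29). Colours end 3 log2 units either side of 0, which clips Thrsp in BAT1 and Thrsp, G0s2, Cidec, Cd36 and Fabp4 in I2, and most rows run from red to blue along the inguinal clones while Acly, Scd2, Elovl6 and Lpin2 stay pale.

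The genes of carbon supply and fatty acid synthesis differed widely in how far they varied. Thrsp, a small protein that promotes lipogenesis, had the widest range of the 39, from 5.19 in I2 through a median of 9.56 to 12.20 in D12, 129-fold on this scale. Fasn, the fatty acid synthase, ran from 10.22 in G10 through 11.27 to 12.53 in D16, a 4.94-fold range. The acetyl-CoA carboxylases, which make malonyl-CoA, are a pair, of which Acaca ran from 9.11 in A3 through 10.07 to 11.04 in D12. Acacb ran from 5.06 in X7 through 6.24 to 7.41 in F9 and was over the array median in 15 of 23. The cytosolic acetyl-CoA synthetase Acss2 ran from 6.78 in E1 to 9.28 in D12, the malic enzyme Me1, a source of NADPH, from 11.17 in A5 to 12.65 in D12, and the citrate carrier Slc25a1 from 9.09 in N13 to 10.9985 in X3. Acly, the enzyme that splits exported citrate into acetyl-CoA, was almost level, from 10.66 in M3 through 10.99 to 11.47 in I2, a 1.76-fold range that was the narrowest of the 39. Its highest inguinal clone was thus the clone with the lowest mean of the lipid genes. Other Acly probe sets over the array median in all 26 arrays ran from 7.84 to 9.62 and from 10.38 to 11.26 in inguinal clones.

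Of the elongation and desaturation genes, 3 of 4 had narrow ranges. Scd1, the main stearoyl-CoA desaturase of fat cells, ran from 11.93 in G10 through 13.54 to 14.33 in D12. Its near relative Scd2 ran only from 12.08 in A3 to 13.27 in D12, and a dimmer probe set of Scd2 from 5.86 to 9.59. The elongases Elovl5 (10.38 to 11.75) and Elovl6 (6.91 to 8.34) had 2.59-fold and 2.70-fold ranges.

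Triglyceride assembly genes spanned larger ranges. The acyltransferase Agpat2, which makes phosphatidic acid and is mutated in a human lipodystrophy, ran from 8.77 in I2 through 11.72 to 13.33 in B13, a 23.5-fold range. Gpd1, which makes glycerol 3-phosphate, ran from 5.89 in N13 through 8.23 to 10.05 in D12, and Gpat3 and Gpam, which add the first acyl chain, from 7.90 in I2 to 11.44 in D12 and from 10.63 in N13 to 13.59 in B13. The final acyltransferases Dgat1 and Dgat2 ran from 10.47 in N13 to 12.72 in B13 and from 8.56 in N13 to 11.92 in D12. Of the phosphatidate phosphatases, Lpin1 ran from 8.92 in N13 through 10.61 to 11.65 in B13, but Lpin2 only from 8.90 in G18 to 10.00 in X7. Pck1, which supplies glycerol carbon in fat cells, was dim in most clones. It exceeded the array median in 0 of 3 interscapular and 5 of 23 inguinal clones, with a median of 5.04 and a top of 7.38 in G12. Mogat1, a monoacylglycerol acyltransferase, did so in 2 of 3 interscapular and 1 of 23 inguinal clones.

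The lipolysis genes all varied strongly. G0s2, the inhibitor of Pnpla2, ran from 6.40 in I2 through 9.75 to 12.62 in D12, a 74.7-fold range. Pnpla2 itself ran from 7.78 in I2 through 10.26 to 11.88 in X3, and Lipe from 5.85 in I2 through 8.07 to 9.46 in X3. Mgll, which splits the last acyl chain from glycerol, ran from 8.41 in N13 to 11.94 in D12, and the co-activator Abhd5 from 8.64 in I2 to 11.91 in D12. Pnpla3, a relative of Pnpla2 that sits on lipid droplets, ran from 6.08 in N13 through 7.38 to 9.60 in D12. The lipase Pnpla2 and its inhibitor G0s2 correlated at r = 0.88 over the 23 clones, which share one protocol.

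Droplet and transport proteins split into variable and level genes. Cidec, which fuses droplets, ran from 5.46 in I2 through 8.82 to 10.93 in D12, a 44.4-fold range, Plin4 from 6.68 in I2 to 11.07 in D12, and Lgals12, a galectin found on droplets, from 5.09 in I2 to 8.83 in D12. Bscl2, the seipin gene, ran from 9.59 in G10 to 12.06 in D12. Plin2, the droplet coat protein that many cell types make, ran only from 12.67 in I2 to 14.17 in B5. Among transport genes the fatty acid receptor Cd36 ran from 7.02 in I2 through 11.06 to 12.22 in M3, a 36.8-fold range. The lipoprotein lipase gene Lpl had a narrow range, at 12.79 in I2, 14.06 at the median and 14.31 in B13. The fatty acid binding proteins Fabp4 and Fabp5 ran from 10.78 in I2 to 14.65 in D12 and from 11.39 in F4 to 14.28 in B13, and caveolin 1 (Cav1) from 12.10 in N13 to 13.50 in D12. The glycerol channel gene Aqp7 exceeded the array median in 1 of 3 interscapular and 4 of 23 inguinal clones. Narrow ranges of the brightest probe sets can understate a gene: a dimmer set of Fabp4 ran from 4.83 to 11.56 with an SD of 1.72, against 0.88 for the brightest set, and the 2 sets correlated at r = 0.90 over the 23 clones. A dimmer set of Lpl ran from 10.96 to 14.17 with an SD of 0.67, against 0.32 for the brightest set (r = 0.95).

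How closely the genes moved together was described by correlation over the 23 inguinal clones. These clones share 1 protocol and differ in batch and in adipocyte marker levels, and their degree of differentiation was not measured. Of 741 pairs of lipid genes, 693 (93.5%) were positively correlated, with a median r of 0.63, against a median of 0.01 for pairs of other genes. Each gene was also set against the mean of the other 38. Plin4 (r = 0.96), Gpat3 (0.96), Cidec (0.95), Lgals12 (0.95), Pnpla2 (0.93), G0s2 (0.925) and Lipe (0.92) followed that mean most closely, and 25 genes exceeded 0.8. Only 7 lay under 0.4, namely Elovl5 (0.36), Mogat1 (0.31), Lpin2 (0.25), Aqp7 (0.20), Elovl6 (0.18), Scd2 (0.13) and Acly (-0.22). Mogat1 and Aqp7 were near background, but the other 5 exceeded the array median in all 23 clones. For Elovl6 and Aqp7 the choice of probe set mattered, as another set correlated with the brightest at r = 0.06 and -0.06. Within roles, lipolysis genes had a median pairwise r of 0.78 and droplet proteins 0.74, while elongation and desaturation genes had 0.25. The closest pairs included Gpat3 with Lgals12 (r = 0.96), Pnpla2 with Lipe (0.94) and Cd36 with Fabp4 (0.94).

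**Figure D2:**
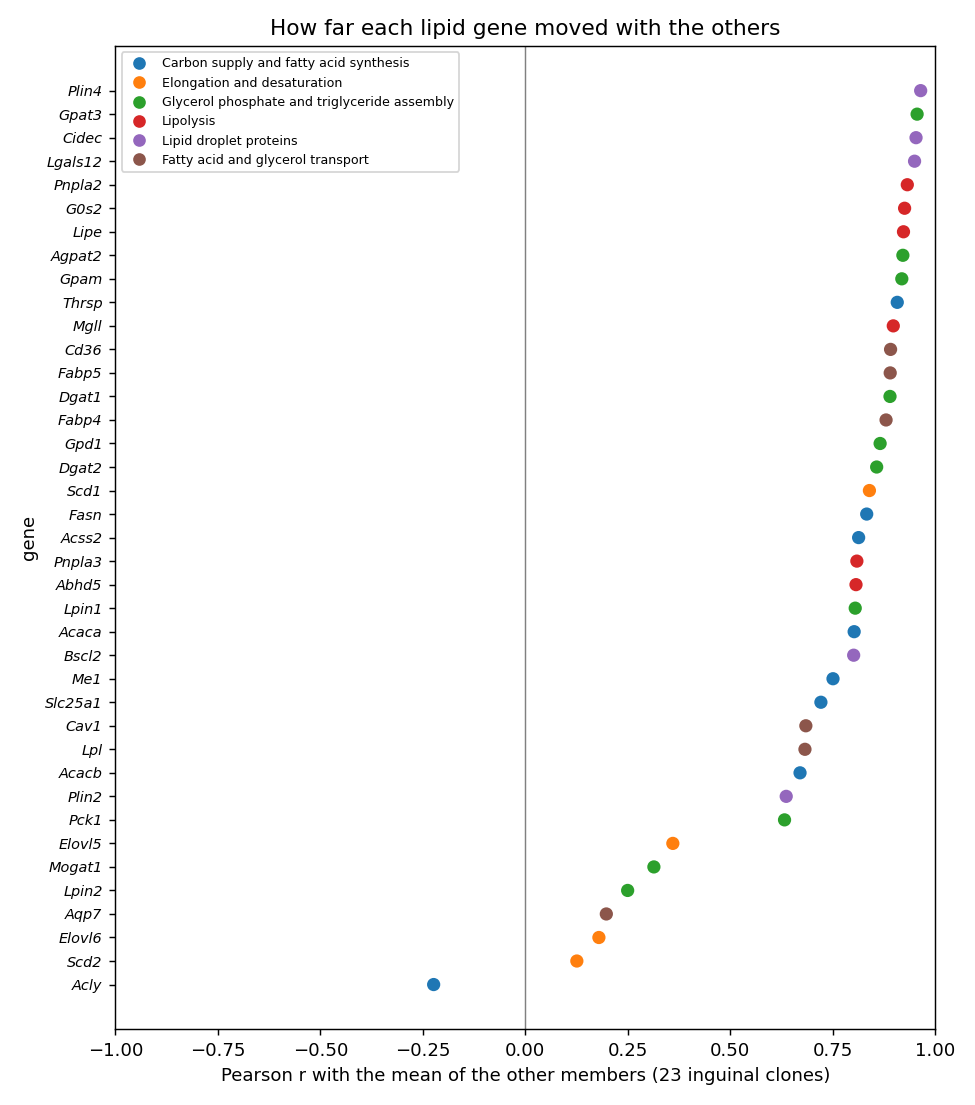
Pearson correlation of each gene (rows) with the mean of the other 38 over the 23 inguinal clones, coloured by role. A band of 25 genes lies above 0.8, with Plin4 at 0.96, and Acly is the 1 gene below 0, at -0.22.

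The promoters of Plin4, the gene most in step with the rest, and of Acly, the gene least in step, are shown for the 250 bases before the RefSeq start (GRCm38.p6). Plin4 lies at chr17:56109783-56110032 on the minus strand and Acly at chr11:100528001-100528250 on the minus strand. Capitals mark matches on either strand to an E-box (CACGTG), a sterol element (TCACNCCAC), a cAMP element (TGACGTCA) or a CCAAT box (CCAAT), none of which overlapped here. Plin4 held 1 CCAAT box, starting 18 bases before the start, and these letters were not in the Acly window.
Plin4: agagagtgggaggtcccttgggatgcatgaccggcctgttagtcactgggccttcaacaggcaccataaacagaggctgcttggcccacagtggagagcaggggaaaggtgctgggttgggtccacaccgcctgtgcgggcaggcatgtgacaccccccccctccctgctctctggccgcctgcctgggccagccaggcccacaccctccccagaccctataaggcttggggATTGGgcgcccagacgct
Acly: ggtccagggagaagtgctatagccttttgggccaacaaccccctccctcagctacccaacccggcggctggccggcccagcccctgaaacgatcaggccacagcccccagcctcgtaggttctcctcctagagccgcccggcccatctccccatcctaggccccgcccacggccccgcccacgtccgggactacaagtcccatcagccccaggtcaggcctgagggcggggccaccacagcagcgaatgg
A CCAAT box lay in 33.85% of all 32851 promoter windows and in 14 of 41 windows of 30 lipid genes. An E-box lay in 6.02% of all windows and in 5 of the 41 (Elovl5, Lipe, Lpin2, Mgll and Slc25a1). The sterol element lay in 1.05% of all windows and in 0 of the 41.

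To ask how far the lipid genes followed the rest of the fat cell programme, each gene was regressed over the 23 inguinal clones on the mean of 10 adipocyte markers that are not among the 39 (Adipoq, Retn, Pparg, Cebpa, Klb, Adig, Slc2a4, Acvr1c, Trarg1 and Aoc3). Of 38 lipid genes tested, 31 rose with the markers, 0 fell and 7 did not pass (limma, adjusted over all genes, threshold 0.05). Of all 12595 genes, 10.7% passed, made up of 6.38% that rose and 4.33% that fell. The median slope was 0.66 log2 units per unit of marker mean for the lipid genes and -0.01 for all genes. By role, 7 of 8 synthesis genes, 1 of 4 elongation and desaturation genes, 8 of 9 assembly genes, 6 of 6 lipolysis genes, 4 of 5 droplet genes and 5 of 6 transport genes rose. The steepest were Thrsp (1.89 ± 0.18, SE, adjusted p = 5.57e-08), G0s2 (1.64 ± 0.17, adjusted p = 2.57e-07) and Cidec (1.63 ± 0.11, adjusted p = 6.41e-10). Those that did not pass were Acly (-0.09 ± 0.06), Elovl5 (0.09 ± 0.08), Elovl6 (0.06 ± 0.09), Scd2 (-0.01 ± 0.08), Lpin2 (0.07 ± 0.08), Plin2 (0.24 ± 0.09, adjusted p = 0.0727) and Aqp7 (0.08 ± 0.15). Mogat1 was not tested because too few inguinal clones had it above the array median. Leaving out single clones kept the count between 28 and 31.

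**Figure D3:**
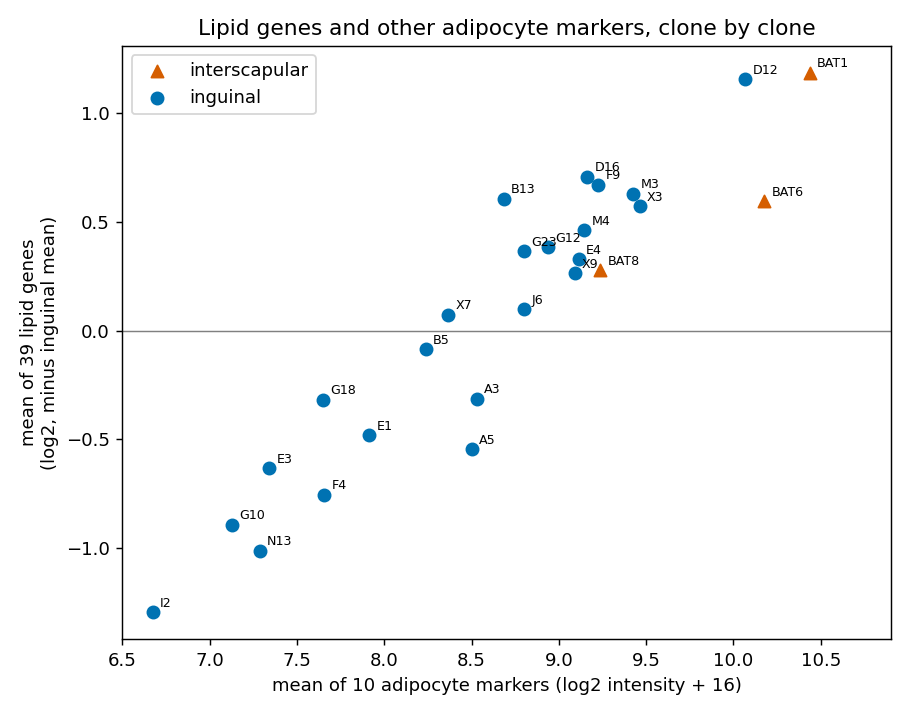
Mean of 39 lipid genes, centred on the inguinal mean, against the mean of 10 other adipocyte markers, both in log2 units, for 3 interscapular clones (triangles) and 23 inguinal clones (circles). The inguinal clones run from I2 (6.67 on the marker scale, -1.29) to D12 (10.07, 1.16), and BAT6 (10.18, 0.60) lies to the right of inguinal clones with a like lipid mean.

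The mean of the 39 genes correlated with that marker mean at r = 0.94 (rho = 0.93) over the 23 clones, and at 0.92 without I2 and N13, the clones farthest from the median. Its correlation with the actin 3' to 5' ratio (log2) was -0.07. Outside the 39 genes, those most like their mean were Ppp2r5a, a regulatory subunit of protein phosphatase 2A (r = 0.98), Plaat3, an adipose phospholipase (0.98), Sort1, a sorting receptor of glucose transporter vesicles (0.97), Mlxipl, the carbohydrate-responsive factor ChREBP (0.96), Adig (0.96), Scp2 (0.96), the mitochondrial carbonic anhydrase Car5b (0.96) and pyruvate carboxylase (Pcx, 0.96), over 23 clones. The lowest were the replication genes Rfc5 (-0.82) and Mcm2 (-0.82), then Calhm2 (-0.78) and the DNA repair gene Aplf (-0.78).

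Of 83 other genes of fat metabolism listed from general knowledge of the pathways, 64 could be tested in the same regression, and 25 rose with the adipocyte markers, 0 fell and 39 did not pass. The steepest were the liver-type carboxylesterases Ces1f (1.36) and Ces1d (1.22), the mitochondrion-linked perilipin Plin5 (1.22), Mlxipl (1.09) and Pcx (1.01). Srebf1, the sterol-regulated factor that drives lipogenic enzymes, had a slope of 0.28 ± 0.08 (SE, adjusted p = 0.0183).

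Because Ucp1 defines thermogenic fat cells, the same regression was run on log2 Ucp1, which ranged from 4.66 to 7.55 in the inguinal clones. Of 38 lipid genes, 15 rose with Ucp1 and 0 fell (limma, adjusted over all genes), against 1.48% of 12604 genes in either direction, 1.37% rising and 0.111% falling. Most Ucp1 values lay near background, under the array median in 14 of 23 clones. They included Gpat3 (0.93 per log2 unit of Ucp1, adjusted p = 0.00492), Gpd1 (1.29, adjusted p = 0.00551), Cidec (1.39, adjusted p = 0.00551), Lgals12 (1.06, adjusted p = 0.00551) and Dgat1 (0.64, adjusted p = 0.00551). Pnpla3 (0.52, adjusted p = 0.257) and Fasn (0.38, adjusted p = 0.207) did not pass. With the adipocyte marker mean as a covariate, with which Ucp1 correlated at r = 0.69 over these clones, 0 lipid genes and 0 of all genes passed, with 7 lipid genes and 473 of all genes at an unadjusted p under 0.05, and the median slope of the lipid genes was 0.08, against 0.54 without it. The count also fell to 5 without D12, 8 without E3, 8 without G10, 9 without G12, 7 without N13, and 5 with scan session as a block.

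Between the depots, 4 lipid genes were higher in interscapular clones and 0 were lower (limma over 12734 genes, adjusted p under 0.05). That is 10.3% of the 39, all of which passed the filter on low values, against 10.2% of all genes called in either direction 4.55% called higher and 5.65% called lower. A share of 10.3% is thus near the share of genes called in either direction. The means of 34 of the 39 were higher in interscapular clones, against 48% of all genes. These 34 are not separate results, since most lipid genes varied together from clone to clone. The median difference of the 39 was 0.62, against -0.02 for all genes. Leaving out BAT1 gave a median of 0.37, leaving out BAT6 0.65 and leaving out BAT8 0.80. Within scan session 2, where BAT6 was the 1 interscapular clone, it was -0.01, and within session 1 it was 0.69, within scanner 1 0.33 and within scanner 2 0.69. It was 0.27 with chip lot and 0.40 with fluidics station as a block.

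**Figure D4:**
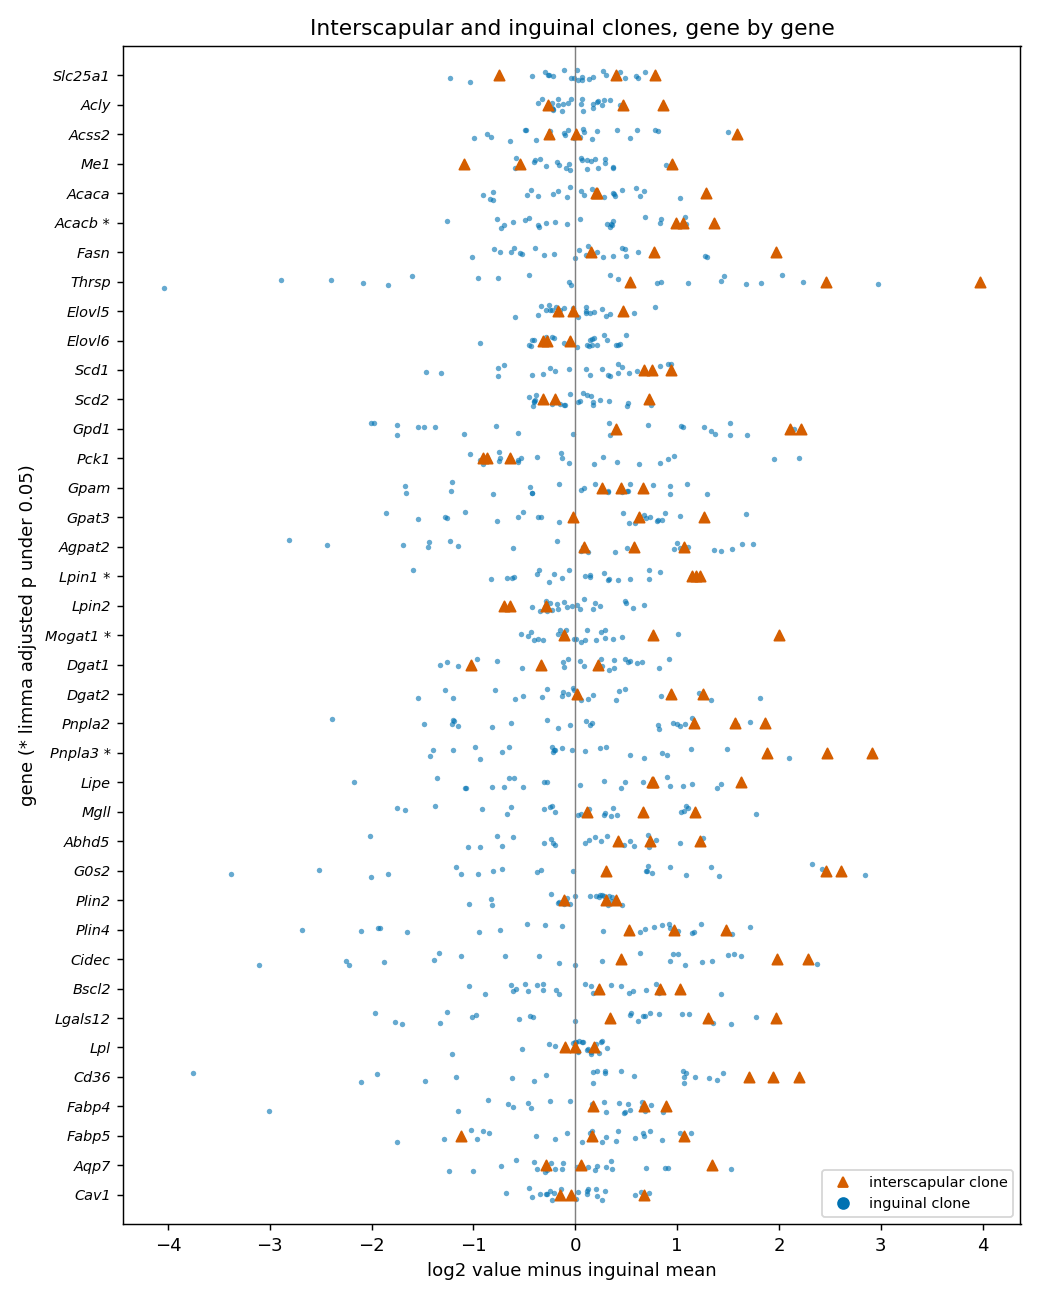
Log2 value minus the inguinal mean for 39 lipid genes in 3 interscapular clones (triangles) and 23 inguinal clones (dots, spread vertically for sight). Stars mark the 4 genes with a limma adjusted p under 0.05, and of the 39 genes only Lpin1 and Cd36 have all 3 triangles outside the inguinal dots.

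Pnpla3 showed the largest difference and the call lost under the fewest alternatives, 2 of 25. It stood at 10.42 in BAT1, 9.98 in BAT6 and 9.40 in BAT8, against a range of 6.08 to 9.60 and a median of 7.38 in inguinal clones. BAT1 and BAT6 exceeded every inguinal clone, and BAT8 exceeded every one but D12. The difference was 2.42 ± 0.51 (SE), 5.37-fold on this scale (adjusted p = 0.00283). It passed without BAT1 (2.18), without BAT6 (2.40) and without BAT8 (2.69). It was 2.41 within session 1 (adjusted p = 0.0400), 2.16 within session 2 (adjusted p = 0.0713), 1.92 within scanner 1 (adjusted p = 0.415) and 2.66 within scanner 2 (adjusted p = 0.0146).

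Lpin1, Acacb and Mogat1 also passed over all clones, but with chip lot as a block their adjusted p-values were 0.0749, 0.115 and 0.135, and with fluidics station 0.130, 0.214 and 0.0828, while Pnpla3 passed under both. Lpin1 stood at 11.66 in BAT1, 11.70 in BAT6 and 11.73 in BAT8, against 8.92 to 11.65 and a median of 10.61 in inguinal clones. The depots did not overlap, but B13 at 11.65 lay next to BAT1, and the difference was 1.19 ± 0.35 (SE, adjusted p = 0.0271). A dimmer probe set of Lpin1 stood at 10.51 to 10.98 in interscapular clones and 8.18 to 10.46 in inguinal clones, also without overlap. Acacb stood at 7.30 in BAT1, 7.68 in BAT6 and 7.37 in BAT8, against 5.06 to 7.41 in inguinal clones, a difference of 1.13 ± 0.36 (adjusted p = 0.0419). Leaving out BAT1, BAT6 or BAT8 took Lpin1 to adjusted p-values of 0.0864, 0.126 and 0.103 in that order, and Acacb to 0.0962, 0.208 and 0.114. Mogat1 stood at 7.32 in BAT1, 6.09 in BAT6 and 5.21 in BAT8, against 4.79 to 6.33 in inguinal clones (difference 0.88 ± 0.27, adjusted p = 0.035). BAT8 lay below the Mogat1 median of the inguinal clones, so this difference rested on BAT1 and BAT6. Mogat1 exceeded the array median in 3 arrays, the least the filter allows, and was tested only through BAT1 and BAT6 with D12, so its call adds no support to the count, and without BAT1 or BAT6 it was not tested. Groups did not overlap in 2 of the 39 genes, Lpin1 and Cd36, or 5.13%, both higher, against 2.87% of all genes in either direction and 1.48% higher.

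The promoters of the pair with the lowest adjusted p are shown in the same way. Pnpla3 lies at chr15:84167566-84167815 on the plus strand and Lpin1 at chr12:16610967-16611216 on the minus strand (GRCm38.p6).
Pnpla3: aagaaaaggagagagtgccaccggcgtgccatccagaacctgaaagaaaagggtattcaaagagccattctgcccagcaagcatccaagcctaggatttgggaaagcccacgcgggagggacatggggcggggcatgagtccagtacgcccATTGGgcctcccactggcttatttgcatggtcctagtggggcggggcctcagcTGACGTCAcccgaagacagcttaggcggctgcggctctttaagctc
Lpin1: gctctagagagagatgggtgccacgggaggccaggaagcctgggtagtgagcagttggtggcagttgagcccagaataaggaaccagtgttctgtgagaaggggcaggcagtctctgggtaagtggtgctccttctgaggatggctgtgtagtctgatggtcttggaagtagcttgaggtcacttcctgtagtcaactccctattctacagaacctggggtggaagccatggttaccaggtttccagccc
The Pnpla3 window held a full palindromic cAMP element starting 46 bases before the start and a CCAAT box starting 99 bases before it. That cAMP element lay in 1.55% of all windows and in 1 of the 41 windows of lipid genes, that of Pnpla3. The Lpin1 window held none of the 4 motifs.

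The other 5 lipolysis genes and the uptake gene Cd36 had higher means in interscapular clones and did not pass. Cd36 stood at 12.96 in BAT1, 12.71 in BAT6 and 12.48 in BAT8, above all 23 inguinal clones (7.02 to 12.22), yet its difference of 1.95 ± 0.73 had an adjusted p of 0.0859. Pnpla2 stood at 11.72, 12.02 and 11.33 in BAT1, BAT6 and BAT8, against an inguinal median of 10.26 (1.53 ± 0.61, adjusted p = 0.108). Lipe (1.05 ± 0.54), G0s2 (1.79 ± 0.90), Abhd5 (0.80 ± 0.43) and Mgll (0.65 ± 0.50) had adjusted p-values between 0.21 and 0.442. All 6 lipolysis genes had a higher mean in interscapular clones, with a median difference of 1.29. Among the other transport genes, Lpl (0.03 ± 0.19), Fabp5 (0.04 ± 0.47), Cav1 (0.16 ± 0.22) and Aqp7 (0.37 ± 0.38) had differences smaller than their errors. With chip lot as a block, Lpl, Fabp5, Aqp7, Slc25a1 and Agpat2 had negative differences, all with an adjusted p over 0.8.

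The means of 5 genes were lower in interscapular clones, and 0 of them passed. Lpin2 came nearest, at 8.68 in BAT1, 8.63 in BAT6 and 9.04 in BAT8, against 8.90 to 10.00 in inguinal clones (-0.54 ± 0.19, adjusted p = 0.0668), and it passed with chip lot (-0.72) or fluidics station (-0.85) as a block. BAT1 and BAT6 lay below every inguinal clone for Lpin2, the opposite of Lpin1 in the same clones. Pck1 had a difference of -0.80, and blocking on chip lot made it -1.53, which passed (adjusted p = 0.0457). Dgat1 had a difference of -0.38, Me1 -0.23 and Elovl6 -0.22. Another Elovl6 probe set, over the array median in all 26 arrays, gave -1.08 and had no test of its own. It stood at 6.04 to 6.76 in interscapular and 6.45 to 8.22 in inguinal clones.

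The interscapular clones were not alike in fatty acid synthesis. Fasn stood at 13.20 in BAT1, 12.0005 in BAT6 and 11.38 in BAT8, against an inguinal range of 10.22 to 12.53. Me1 stood at 12.71 in BAT1, above all inguinal clones, and at 10.67 in BAT6, below all of them. Its depot difference passed without BAT1 (-0.82, adjusted p = 0.0474) and was 0.20 without BAT6. Acly stood at 11.89 in BAT1 and 11.50 in BAT6, above all inguinal clones, and at 10.76 in BAT8, near the inguinal floor of 10.66. Thrsp stood at 13.20, 11.68 and 9.76 in BAT1, BAT6 and BAT8, and Fabp5 at 14.21, 13.31 and 12.02. BAT1 exceeded the highest inguinal clone in 14 of the 39 genes, BAT6 in 7 and BAT8 in 2. They lay below the lowest inguinal clone in 1, 2 and 0 genes in that order. The matching shares over all genes were not worked out, so these counts only describe the 3 clones. The differences among the 3 are of single arrays and have no test.

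The adipocyte marker mean was itself high in interscapular clones, at 10.44 in BAT1, 10.18 in BAT6 and 9.24 in BAT8, against 6.67 to 10.07 in inguinal clones. With it as a covariate the median difference of the 39 genes became -0.33, and 4 genes passed, 1 higher and 3 lower, against 3.27% of all genes called, 1.53% higher and 1.74% lower. Pnpla3 was still higher (1.07 ± 0.29, adjusted p = 0.0401). Dgat1 (-1.24 ± 0.31, adjusted p = 0.0223), Pck1 (-1.74 ± 0.45, adjusted p = 0.0282) and Gpat3 (-0.89 ± 0.25, adjusted p = 0.0468) were lower in interscapular clones in this fit. Of the other triglyceride assembly genes, Lpin1 (0.52) and Mogat1 (0.54) had positive differences. Agpat2, Gpam, Lpin2, Gpd1 and Dgat2 had negative ones, and none of these passed. Klb (difference 2.86, adjusted p = 8.74e-06) and Trarg1 (3.02, adjusted p = 0.000596) were themselves higher in interscapular clones, without overlap, and the gap in the marker mean was 1.46 with them and 1.095 without them. With the other 8 markers as the covariate, an alternative chosen after seeing the data, the median difference was -0.03 and 2 genes passed. Pnpla3 was 1.53 higher (adjusted p = 0.00136) and Dgat1 was lower (-0.98, adjusted p = 0.0291), while Pck1 (-1.41, adjusted p = 0.0517) and Gpat3 (-0.42, adjusted p = 0.232) did not pass. Dgat1 stood at 12.01 in BAT1, 10.77 in BAT6 and 11.46 in BAT8, against an inguinal median of 12.05. A dimmer Dgat1 probe set gave a depot difference of 0.04, against -0.38 for the brightest. In fits with no covariate, the Dgat1 difference was -0.06 without BAT6, -0.68 without BAT1 and -0.40 without BAT8. Leaving out single interscapular clones was not tried with the covariate. Pck1 was under the array median in BAT1, BAT6 and BAT8, so its size is approximate. It was tested only through inguinal clones, so its call adds no support to the count of lower genes. BAT1 and BAT6 lie beyond the highest inguinal marker mean, so this fit extends the inguinal line past its data.

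**Figure D5:**
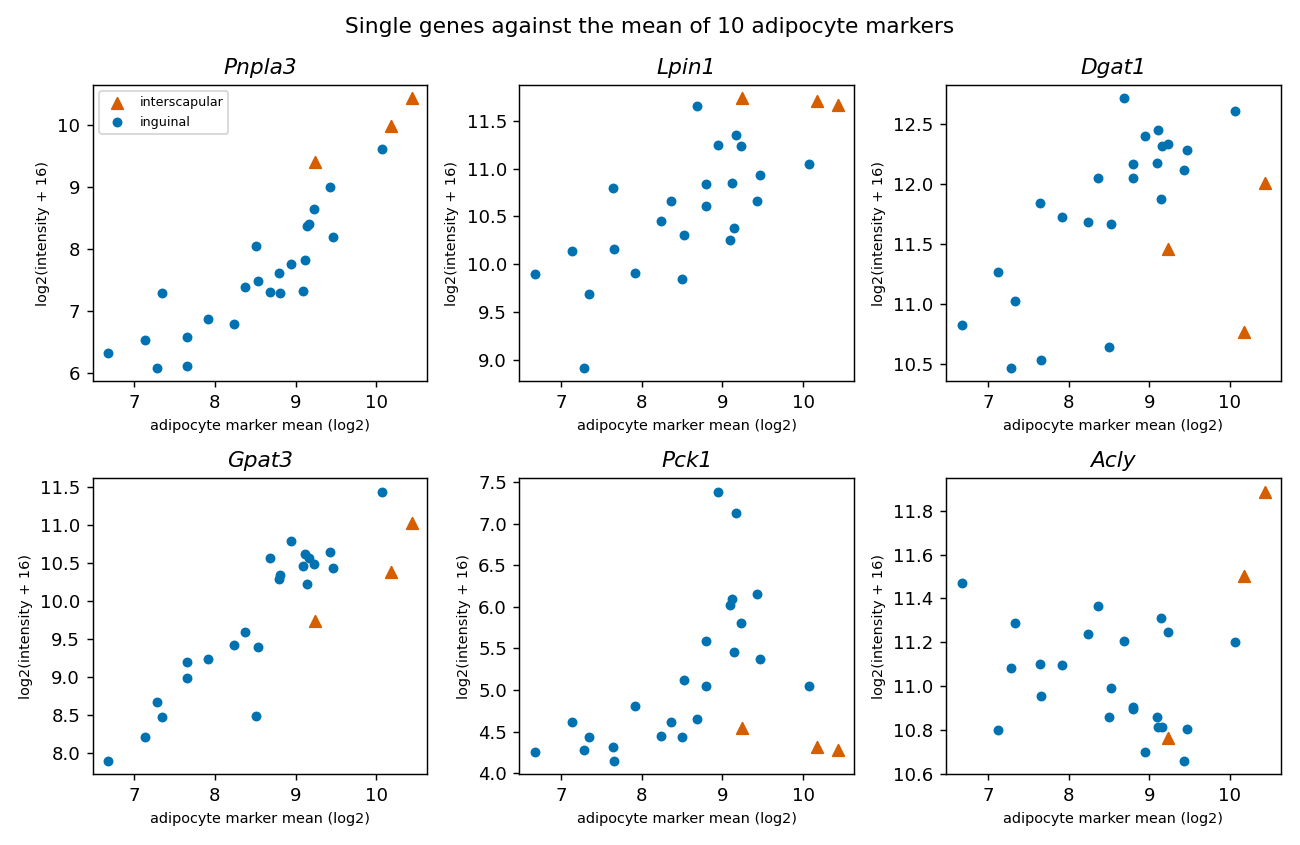
Log2(intensity + 16) of 6 lipid genes against the mean of 10 adipocyte markers in 3 interscapular clones (triangles) and 23 inguinal clones (circles). Pnpla3 triangles lie at or above the run of circles, the Dgat1, Gpat3 and Pck1 triangles lie below it, and Acly has no upward run.

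Of the 64 other pathway genes tested between depots, 4 were higher and 1 was lower in interscapular clones. The acyltransferases Agpat3 (0.90 ± 0.23, adjusted p = 0.0128) and Agpat5 (0.83 ± 0.21, adjusted p = 0.00951) were higher, as were the third lipin Lpin3 (0.48 ± 0.15, adjusted p = 0.0459) and the phospholipase Pnpla8 (0.51 ± 0.17, adjusted p = 0.0474). Pgd, the pentose phosphate dehydrogenase that yields NADPH for lipid synthesis, was lower (-0.71 ± 0.17, adjusted p = 0.00648), at 12.4 in BAT1, 11.3 in BAT6 and 12.24 in BAT8 against 12.20 to 13.03 in inguinal clones. That makes 5 of 64, beside the 10.2% of all genes.

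Markers of other cells moved with depot in part, and their share in the lipid differences was not tested. Of 12 preadipocyte and fibroblast genes tested, 3 were lower in interscapular clones (Thy1, Sfrp1 and S100a4), and the list mean lay between 10.06 and 10.23 there, against 10.11 to 11.35 in inguinal clones. Of 8 macrophage and leukocyte genes tested, Cd68 was higher, with a list mean of 6.65 to 6.95 in interscapular clones against 6.27 to 6.84 in inguinal clones, while Ptprc, Itgam and Tyrobp lay below the array median in all 26 clones. From the same list, Cd68, Adgre1, Csf1r, Cd14, Cd53, Laptm5 and Fcer1g exceeded that median in all 26 clones. Lyz2 did so in 1 of 3 interscapular and 4 of 23 inguinal clones. The endothelial genes Pecam1, Cdh5, Emcn and Vwf were under it in all 26. Among the other endothelial genes, Kdr exceeded it in 3 of 3 interscapular and 23 of 23 inguinal clones, and Tek in 0 of 3 and 2 of 23. The Schwann list had 1 of 3 genes higher (S100b), and 0 of 4 smooth muscle and 0 of 3 skeletal muscle genes passed.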

How the data were processed

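The authors deposited 1 linear intensity per probe set and array (45101 probe sets, 26 arrays). How the authors summarised probes and scaled arrays is not stated in any label or file header read for this report. Intensities were used as log2(intensity + 16) without further scaling, the scale of every level, difference and slope. Of the probe sets, 64 were controls and 34945 carried 1 gene symbol in GEO's annotation of the array, whose names may be out of date. Of these, 34741 matched RefSeq (GRCm38.p6, names only), and 932 with several symbols and 9160 with none were left out. The brightest probe set on average stood for each gene, and genes over the array median in fewer than 3 arrays of a fit were dropped.

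Depot differences (interscapular minus inguinal) and slopes were fitted over all kept genes with limma 3.58.1 (lmFit, eBayes, R 4.3.3), with two-sided p-values adjusted over all genes by Benjamini-Hochberg and a threshold of 0.05. The fits were tested on simulated data. Members and lists were chosen with earlier results of these data known. All 39 members, pathway genes that passed between depots, and the 8 most and 4 least similar genes are named. Scan date, scanner, chip lot and fluidics station came from the deposited experiment files. Scan sessions were made here by grouping scan dates, with a new session after a gap of more than 3 days. Alternatives covered pseudocount, scaling, probe set rule, filter, weights, batches and left-out clones. Of the 14 listed adipocyte markers, 11 were named on the array and 10 kept. Promoters are from RefSeq, matched by symbol for 30 members. The 3 interscapular arrays limit the precision. No 2 arrays were copies of each other (highest correlation 0.987). Figures were drawn with matplotlib 3.10.9.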

Additional observations from a re-analysis of the deposited data

How the results depend on the processing

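The count of 31 lipid genes rising with adipocyte markers moved between 25 and 32 over the alternatives tried and between 28 and 31 without single clones. The depot count of 4 became 2 with a pseudocount of 1, 2 with the filter of all arrays above the median, 1 within session 1, 0 within session 2, 0 within scanner 1, 1 within scanner 2, 1 at an adjusted p under 0.01 and 2 with the actin ratio as a covariate. That count became 5 with the mean of probe sets and 5 with the probe set of largest SD, where Aqp7 also passed. Directions mixed elsewhere: 2 passed with fluidics station as a block (Pnpla3 higher, Lpin2 lower), 3 with chip lot (Pnpla3 higher, Lpin2 and Pck1 lower), 4 with adipocyte markers as a covariate (1 higher, 3 lower) and 2 when those markers left out Klb and Trarg1 (Pnpla3 higher, Dgat1 lower). The last, the actin ratio and leaving out single inguinal clones were chosen after seeing the data. It ranged from 1 to 3 without 1 interscapular clone, where Me1 was lower without BAT1 and Acly higher without BAT8. Within a session or scanner fewer clones were fitted. Otherwise the cause was not tested. Over the alternatives Pnpla3 lost its call in 2 of 25, Lpin1 in 12 of 25, Acacb in 16 of 24 and Mogat1 in 7 of 18. Without BAT1 or BAT6, Mogat1 did not pass the filter. Pck1 passed the filter only through inguinal clones, so its calls as lower add no support to the counts. The Ucp1 count of 15 became 9 with a pseudocount of 64, 5 with scan session as a block and 0 with adipocyte markers as a covariate, and ranged from 5 to 20 without single clones. With that covariate the slope of Lipe turned to -0.0077 and of Cd36 to -0.0423, and the depot difference of Gpat3 turned to -0.89. No paired analysis was possible because the labels pair no clones across depots.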
